A study of Mus musculus with 10 samples.

Results

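Heat shock proteins and DnaJ cochaperones were examined in epididymal white adipose tissue of mice on a high-fat diet and of mice on chow. The members were the array genes whose symbols name an Hsp70, Hsp110, Hsp90, mitochondrial chaperonin (Hspd1, Hspe1), small heat shock (Hspb) or DnaJ protein of class A, B or C. The main chaperones and DnaJ proteins of the endoplasmic reticulum (Hspa5, Hsp90b1, Dnajb9, Dnajb11 and Dnajc3) were set aside. This left 65 genes of 18193 that could be named from a probe set with a single symbol, and each was read from its brightest probe set. The tissue came from male C57BL/6J mice that were 8 weeks old when their diets began. For 8 weeks, 5 mice ate a diet with 60% fat (the HFD group) and 5 ate the normal chow CRF-1 (the chow group). No mouse is labelled as carrying an altered gene or as receiving another agent. Each mouse gave 1 Affymetrix array, so the replicates are separate mice.

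Hsp70 proteins bind exposed stretches of unfolded proteins and release them in a cycle driven by ATP. J-proteins (DnaJ, also called Hsp40) bring clients to Hsp70 and start ATP hydrolysis, and Hsp110 proteins and other nucleotide exchange factors then reset it. Hsp90 acts later on kinases and steroid receptors, the chaperonin of Hspd1 and Hspe1 folds proteins inside mitochondria, and small heat shock proteins hold unfolding proteins without ATP. In stressed cells the factor Hsf1 binds heat shock elements, runs of the triplet GAA and its reverse complement, in the promoters of the inducible members.

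Heat shock elements were looked for in promoters after 2 of 12 stress-inducible members were seen to rise on the diet and 2 to fall. That is 33.3% called, beside 25.9% of all genes. RefSeq windows of 300 bases (250 before to 50 after an annotated start, build GRCm38.p6) were held for 52 of the 65 members. Each window was searched for a pair of triplets, GAA and TTC in either order with 2 bases of any kind between them, and for a triple, GAA, TTC and GAA or TTC, GAA and TTC spaced in the same way. Each pair reads the same on both strands and the triples are each other's reverse complement, so both strands were covered, and overlapping matches were counted. A pair lay in a window of 16 of 52 members (30.8%), against 4587 of 27025 genes in the table (17.0%). A triple lay in a window of 4 members (7.69%), namely Dnajb6, Hspd1, Hspe1 and Hsph1, against 0.662% of all genes. Hspd1 and Hspe1 lie head to head and share their triples. The 150 bases before the start are shown here, 5′ to 3′ on the gene's strand with pairs in capitals, for Hspa1a and Hspa1b, whose level was lower on the high-fat diet, for Hsph1 and Dnajb4, whose level was higher, and for Hspb1 and Hspe1, which did not pass the test.
Hspa1a: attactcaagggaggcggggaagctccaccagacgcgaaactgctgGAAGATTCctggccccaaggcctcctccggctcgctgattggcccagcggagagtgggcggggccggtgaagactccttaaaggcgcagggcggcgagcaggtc
Hspa1b: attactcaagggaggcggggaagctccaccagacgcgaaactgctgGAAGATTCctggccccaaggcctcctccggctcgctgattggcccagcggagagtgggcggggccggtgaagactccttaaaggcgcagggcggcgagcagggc
Hsph1: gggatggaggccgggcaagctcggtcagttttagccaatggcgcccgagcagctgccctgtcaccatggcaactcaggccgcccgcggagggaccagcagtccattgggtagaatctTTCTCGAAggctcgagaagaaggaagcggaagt
Dnajb4: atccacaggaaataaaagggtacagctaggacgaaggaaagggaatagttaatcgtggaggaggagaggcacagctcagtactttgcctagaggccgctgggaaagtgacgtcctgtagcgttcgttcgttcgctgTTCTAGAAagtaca
Hspb1: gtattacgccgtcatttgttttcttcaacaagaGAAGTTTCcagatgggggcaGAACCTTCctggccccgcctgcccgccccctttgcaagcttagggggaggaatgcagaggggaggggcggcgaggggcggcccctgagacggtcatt
Hspe1: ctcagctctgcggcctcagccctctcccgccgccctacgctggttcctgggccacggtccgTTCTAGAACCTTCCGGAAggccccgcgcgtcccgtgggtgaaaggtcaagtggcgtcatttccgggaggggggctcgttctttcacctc
These stretches lie, in build GRCm38.p6, at chr17:34972157-34972306 (minus strand) for Hspa1a, chr17:34959239-34959388 (minus) for Hspa1b, chr5:149636337-149636486 (minus) for Hsph1, chr3:152193846-152193995 (minus) for Dnajb4, chr5:135887769-135887918 (plus) for Hspb1 and chr1:55087998-55088147 (plus) for Hspe1. Hsph1 and Dnajb4 each have 2 windows, of which 1 is shown. For Dnajb4 the window shown is the only 1 with a pair. The Hsph1 triple begins at base 37 after the start of the window shown, so it lies outside the printed stretch. The Hspa1a and Hspa1b stretches differ at 1 base of 150, and their whole windows at 4 of 300 bases. In Hspe1 the capitals hold 3 overlapping pairs, while Hspb1 has 2 separate ones. A pair lay in 2 of the 8 members with a window that rose, in 4 of the 11 that fell and in 10 of the 33 that did not pass. A match is a description of these letters and not evidence of binding.

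All levels below are log2 intensities after quantile normalization across the 10 arrays, differences are HFD minus chow on that scale, and adjusted p-values come from limma over all 18193 genes with a threshold of 0.05. Levels of different genes are not compared, since each rests on its own probes. For the tissue label, the fat cell hormone Adipoq averaged 13.15 ± 0.096 on the high-fat diet and 12.93 ± 0.47 on chow (SD, n = 5 each). The mean of 10 adipocyte genes was 11.56 to 12.03 on the HFD arrays. On the chow arrays it was 11.00, 10.02, 11.49, 11.99 and 12.07, so chow 1 and 2 were lowest. The median correlation between arrays of 1 group across genes was 0.955 on the high-fat diet and 0.903 on chow, so the chow arrays were less alike. RNA 5′ to 3′ ratios, which fall when RNA is degraded or copied short, differed too: the actin control ratio was 0.614 ± 0.038 on the high-fat diet and 0.341 ± 0.073 on chow (exact 2-sided permutation p = 0.00794, the smallest that 5 against 5 arrays allow). Macrophage markers were higher on the high-fat diet in 12 of 12 genes, with list means of 10.54 to 11.15 on that diet and 7.09 to 8.00 on chow. List means of the neighbouring organ's markers were lower. For 13 epididymis epithelium genes they were 3.92 to 6.10 on the high-fat diet and 7.68 to 12.37 on chow. For 12 sperm and testis genes they were 2.83 to 4.46 on the high-fat diet and 4.36 to 9.24 on chow. Of these genes, 8 and 5 passed as lower (61.5% and 41.7%, beside 25.9% of all genes) and 0 as higher. The epididymis genes did not move as 1 block: on chow 1, Lcn8, Lcn9, Gpx5, Cst11 and Rnase10 read below every HFD array. Summed intensities of the macrophage list were 35280 to 54970 on the high-fat diet and 2774 to 5657 on chow. Those of the epididymis list were 501.7 to 1538 on the high-fat diet and 6304 to 84450 on chow, and those of the testis list 140.2 to 456.2 on the high-fat diet and 324 to 9584 on chow. At most 1 gene of either list sat at the floor on any HFD array, and 0 did on chow. Chow arrays 1 and 2 stood furthest apart, and chow 2 gave the highest or lowest value of 33 of 65 members (50.8%, against 43.4% of all genes). The part of RNA quality and of these other cells in the results was not tested, and in bulk tissue fewer cells of a type and less RNA per cell cannot be told apart.

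Of the 65 members, 9 rose on the high-fat diet, 12 fell and 44 did not pass. That is 32.3% of members, beside 25.9% of all genes (12.9% higher and 13.1% lower). The median difference was -0.09 over the members and -0.04 over all genes. The groups did not overlap in 21 members (9 with HFD above chow and 12 with HFD below it), or 32.3%, beside 22.5% of all genes. By family, 1 of 10 Hsp70 genes rose and 3 fell, 1 of 3 Hsp110 genes rose, 1 of 8 small heat shock genes rose and 1 fell, 2 of 4 DnaJ class A genes fell, 3 of 11 class B genes rose and 1 fell, and 3 of 26 class C genes rose and 5 fell. Hsp90aa1 and both mitochondrial chaperonin genes did not pass. Values spread more among chow mice: the SD was larger on chow for 56 members (86.2%, against 76.8% of all genes), with a median SD of 0.165 on the high-fat diet and 0.367 on chow.

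**Figure D1:**
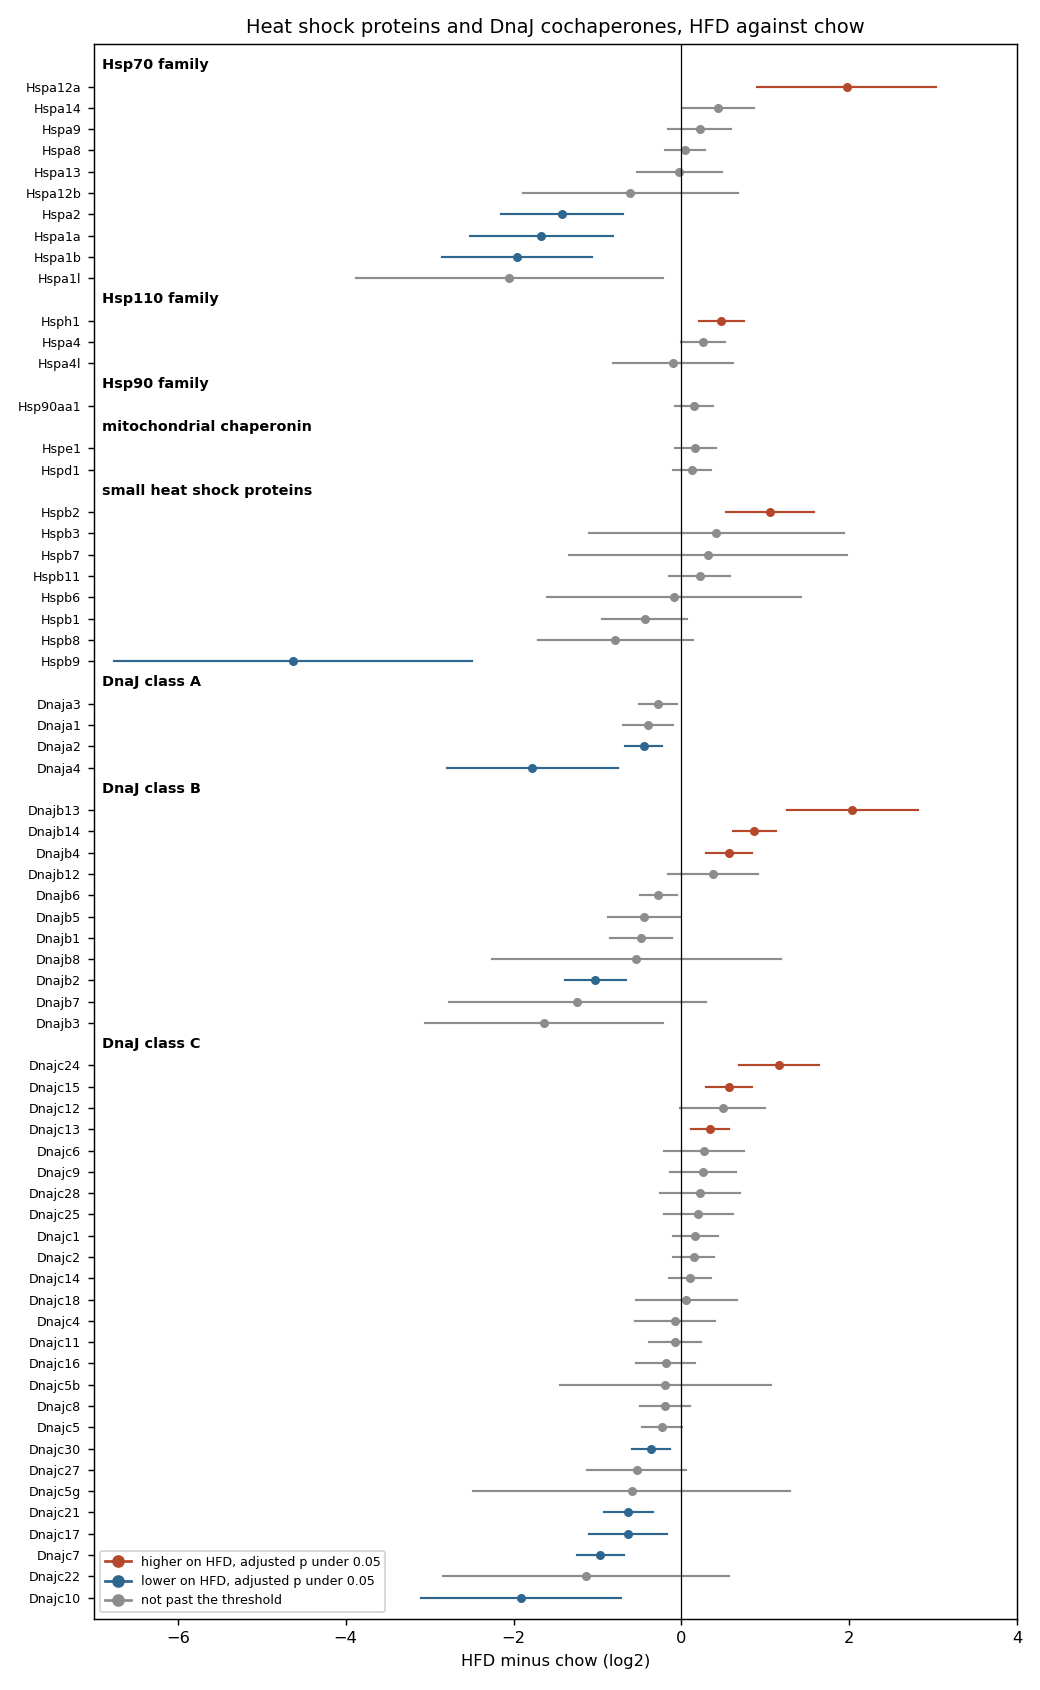
Difference between HFD and chow (log2, HFD minus chow) for the 65 members, ordered by family, as points with 95% confidence intervals from limma. Red points are the 9 members that rose, blue points the 12 that fell and grey points the 44 that did not pass the threshold.

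**Figure D2:**
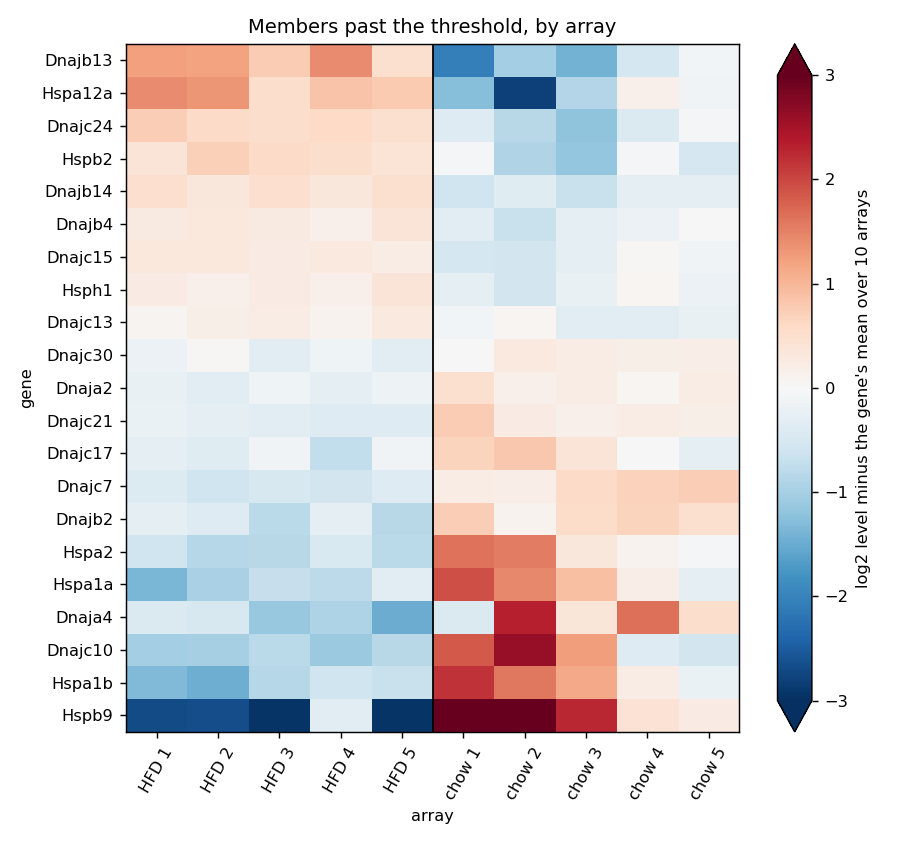
Levels of the 21 members past the threshold on each array, as log2 level minus the gene's mean over the 10 arrays, with the 5 HFD arrays to the left of the 5 chow arrays. Colours are clipped at 3 log2 units to either side; chow 1 and 2 hold the highest values of Hspa1a, Hspa1b, Hspa2, Hspb9 and Dnajc10.

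The stress-inducible Hsp70 genes Hspa1a and Hspa1b were lower on the high-fat diet. Hspa1b read 8.11, 7.96, 8.56, 8.82 and 8.76 on the 5 HFD arrays, against 11.59, 11.00, 10.55, 9.64 and 9.22 on the 5 chow arrays. Every HFD value lay below every chow value, although the chow mice themselves ranged widely. The difference was -1.96 (SE 0.41, adjusted p = 0.00529), a level 3.89-fold lower, and its other probe sets gave -1.86 and -1.80. Hspa1a read 5.86, 6.26, 6.56, 6.45 and 6.90 in the HFD mice, against 9.17, 8.69, 8.14, 7.43 and 6.95 in the chow mice. Its groups came within a small step of each other at HFD 5 and chow 5 but did not overlap, and the difference was -1.67 (SE 0.39, adjusted p = 0.00937). Both genes encode nearly the same protein from nearly the same sequence, so their probes may share signal and their values are not independent. Without chow arrays 1 and 2 the differences were -1.37 for Hspa1b and -1.11 for Hspa1a (adjusted p = 0.0044 and 0.0113). With the mean of epididymis and testis genes as a covariate, neither passed. Hspa1b was then at -0.96 (SE 0.75, adjusted p = 0.47) and Hspa1a at -0.75 (SE 0.72, adjusted p = 0.567). The covariate did not overlap between the groups, so its part and that of the diet cannot be told apart.

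Hspa2, an Hsp70 that mouse sperm cells need for meiosis, fell as well. It read 7.04, 6.80, 6.80, 7.19 and 6.82 on the HFD arrays, against 9.27, 9.17, 7.98, 7.75 and 7.59 on the chow arrays. No HFD array reached the lowest chow array, and chow 1 and 2 were the highest. The difference was -1.42 (SE 0.33, adjusted p = 0.00894), and without those 2 arrays it was -0.85. Hspa12a, a distant Hsp70 relative, rose: it read 8.32, 8.22, 7.44, 7.76 and 7.68 on the high-fat diet, against 5.63, 4.09, 6.02, 7.05 and 6.80 on chow. The HFD values all lay above the chow values, with chow 2 lowest, and the difference was 1.97 (SE 0.48, adjusted p = 0.0124). Of its other probe sets, 1 passed at 1.30, while 1.63 and -0.60 did not. The mean of its probe sets gave 1.07 (adjusted p = 0.0604). With the mean of epididymis and testis genes as a covariate, Hspa12a was at -0.15 (SE 0.63, adjusted p = 0.917). That covariate did not overlap between the groups, so its part and that of the diet cannot be told apart.

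Hspa8, the constitutive Hsp70 of the cytosol, read 12.53, 12.55, 12.69, 12.58 and 12.80 on the high-fat diet, against 12.54, 12.40, 12.73, 12.64 and 12.65 on chow. The groups overlapped fully, and the difference was 0.04 with a 95% interval of -0.20 to 0.27. Hspa9, the mitochondrial Hsp70, differed by 0.22 (interval -0.16 to 0.60), and Hspa14, which works at the ribosome with Dnajc2, by 0.43 (adjusted p = 0.128). Hspa13 differed by -0.03 and the testis gene Hspa1l by -2.05 (adjusted p = 0.0944), with levels for Hspa1l of -0.60 to 3.16 on the high-fat diet and 2.20 to 5.76 on chow. Hspa12b, known from endothelial cells, averaged 7.13 ± 0.21 on the high-fat diet and 7.74 ± 1.48 on chow (SD, n = 5 each), with a difference of -0.61 (adjusted p = 0.488).

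**Figure D3:**
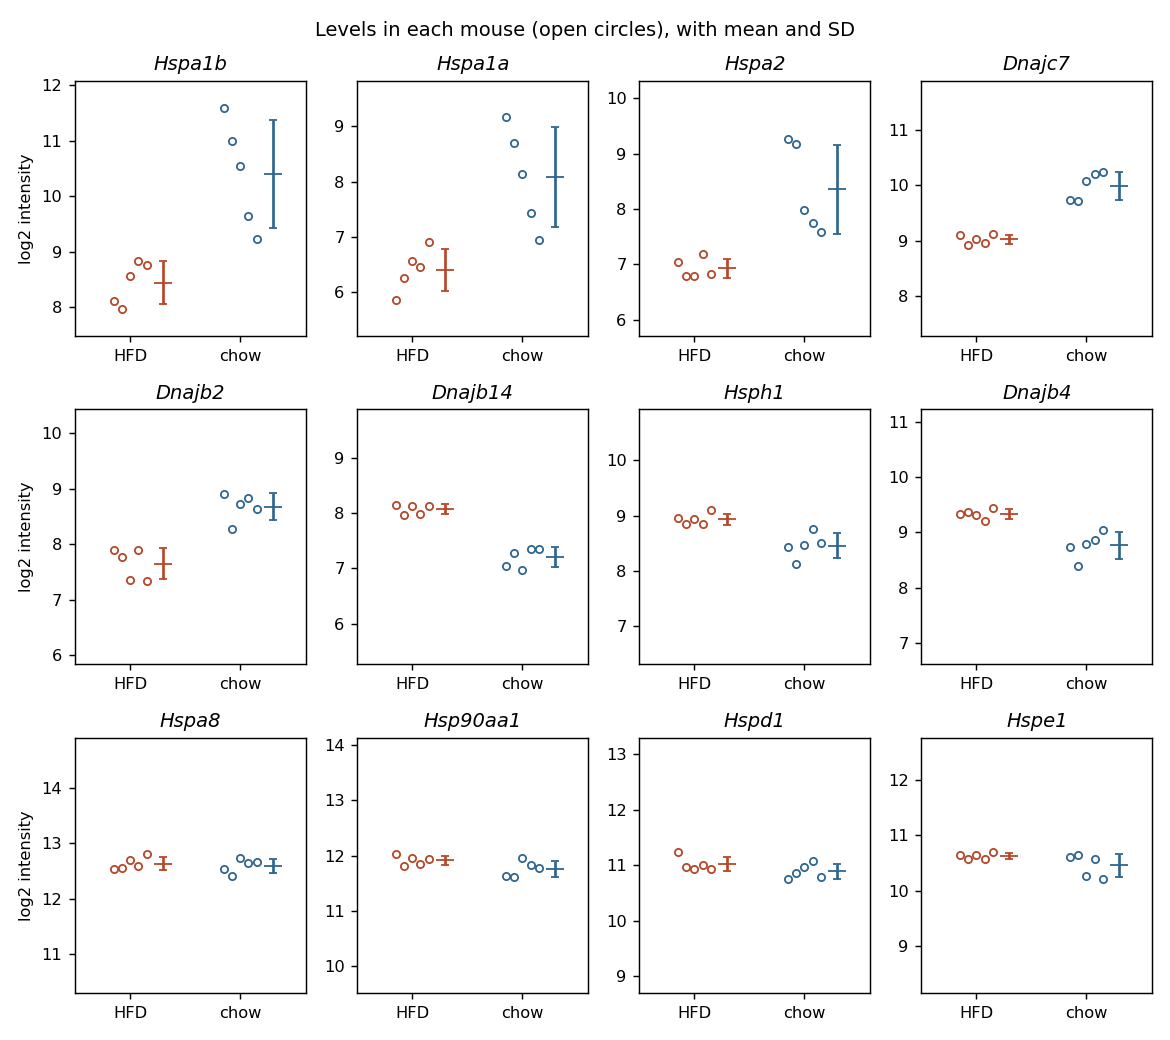
Log2 intensity of 12 members in each mouse (open circles) with the mean and SD of each group of 5, HFD to the left of chow. All panels span the same number of log2 units but not the same levels; Hspa1a and Hspa1b are tighter on the high-fat diet than on chow, while Hspa8 and Hsp90aa1 overlap.

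Among the Hsp110 exchange factors, Hsph1 rose. It read 8.95, 8.84, 8.93, 8.84 and 9.09 on the HFD arrays, against 8.43, 8.13, 8.46, 8.76 and 8.51 on the chow arrays. Chow 4 came closest to the HFD mice without reaching them. The difference was 0.47 (SE 0.12, adjusted p = 0.0149), and its other probe set gave 0.71. Hspa4 read 9.88, 9.97, 9.93, 9.93 and 9.81 on the high-fat diet, against 9.75, 9.99, 9.55, 9.35 and 9.61 on chow, where chow 2 exceeded every HFD array. The difference of 0.25 did not pass (adjusted p = 0.145), but without chow 2 it was 0.34 (adjusted p = 0.021), and another Hspa4 probe set gave 0.81 (adjusted p = 0.00332 over all probe sets). Hspa4l differed by -0.10 at its brightest probe set, where chow 2 stood high at 8.22, while 2 dimmer probe sets were higher on the high-fat diet by 0.86 and 0.92.

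Hsp90aa1, the stress-responsive cytosolic Hsp90, read 12.03, 11.82, 11.95, 11.84 and 11.93 on the high-fat diet, against 11.64, 11.62, 11.96, 11.83 and 11.77 on chow. The groups overlapped, and the difference was 0.15 with an interval of -0.07 to 0.38. Other probe sets of the gene gave 0.53 (adjusted p = 0.0404) and 0.65 (adjusted p = 0.00462), so the call depends on the probe set. Hspd1, the mitochondrial Hsp60, read 11.23, 10.96, 10.93, 11.01 and 10.93 on the high-fat diet, against 10.76, 10.86, 10.98, 11.07 and 10.79 on chow, a difference of 0.12 (interval -0.10 to 0.35). Its lid Hspe1 read 10.65, 10.57, 10.64, 10.56 and 10.70 on the high-fat diet, against 10.61, 10.64, 10.27, 10.57 and 10.21 on chow. Both overlapped between the groups. Hspe1 differed by 0.17 (interval -0.08 to 0.41), and its dimmer probe set gave 0.65 (adjusted p = 0.00201).

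Of the 8 small heat shock genes, Hspb2 rose and Hspb9 fell. Hspb2, found mainly in muscle, ran over 6.42 to 6.75 on the high-fat diet and 4.86 to 6.00 on chow, a difference of 1.05 (SE 0.24, adjusted p = 0.00842). Cryab, the small heat shock protein next to Hspb2 in the gene order, is outside the 65 members by its symbol. It is on the stress-inducible list, but it was named here after its values were seen. It ran over 11.03 to 11.52 on the high-fat diet and 7.94 to 10.72 on chow, a difference of 1.92 (adjusted p = 0.0135). Hspb9, a testis gene, ran over -0.60 to 2.02 on the high-fat diet, where 2 arrays sat at the floor, and over 2.60 to 7.72 on chow. It fell by 4.63 on the log2 scale (SE 0.97, adjusted p = 0.00541), while on the log2(value + 16) scale, which damps dim values, the difference was -1.52 and did not pass (adjusted p = 0.0636). Of 9 members known chiefly from testis or sperm (Hspa1l, Hspa2, Hspb9, Dnajb3, Dnajb7, Dnajb8, Dnajb13, Dnajc5b and Dnajc5g), 7 had their highest value on chow 2, which also had the highest testis list mean (9.24). Over all 65 members, chow 2 was the highest array for 21. Hspa2 was highest on chow 1, and Dnajb13, which rose, on HFD 4. Among the 9, 1 rose and 2 fell (33.3% called, beside 25.9% of all genes). The 9 were listed after values were seen. The part of testis RNA in these values was not tested.

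Hspb1 (Hsp25), an inducible holdase, read 10.93, 10.80, 10.26, 10.93 and 10.35 on the high-fat diet, against 10.91, 10.37, 11.55, 11.18 and 11.44 on chow. Chow 1 and 2 lay among the HFD arrays and chow 3 to 5 above them. The difference of -0.44 did not pass (adjusted p = 0.194), while it was -0.61 without chow 2 (adjusted p = 0.0284) and -0.73 without chow 1 and 2 (adjusted p = 0.00769). Hspb8, the partner of Bag3 in clearing misfolded proteins, averaged 8.48 ± 0.33 on the high-fat diet and 9.27 ± 1.02 on chow (SD, n = 5 each), a difference of -0.79 (adjusted p = 0.199). Chow 2 was its lowest chow value at 7.48, and the others lay between 9.46 and 10.04, so that the difference was -1.24 without chow 2 (adjusted p = 0.000738). Hspb6 (Hsp20), prominent in smooth muscle, read 8.39, 8.62, 8.07, 8.87 and 8.12 on the high-fat diet, against 11.56, 8.30, 7.62, 7.46 and 7.56 on chow. Chow 1 alone set the direction: the difference was -0.09 with all arrays (adjusted p = 0.942) and 0.68 without chow 1 (adjusted p = 0.0451). The differences of Hspb3, Hspb7 and Hspb11 were 0.42, 0.31 and 0.22, none past the threshold.

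Hspb6 and Hspa12b, both uneven on chow, are set here beside marker lists of other cell types. The smooth muscle list mean was 7.05, 6.97, 6.25, 6.79 and 6.19 on the HFD arrays, against 11.26, 8.70, 8.74, 8.30 and 8.27 on the chow arrays. Chow 1 was the highest array for it as for Hspb6. On chow 3 to 5 they parted: the list lay above all HFD arrays and Hspb6 below them. In summed intensity its 9 genes, none at the floor, ran over 4307 to 6198 on the high-fat diet and 7966 to 37920 on chow. The endothelial list mean was 8.51, 8.52, 8.06, 8.28 and 8.00 on the HFD arrays, against 7.73, 6.95, 9.59, 9.16 and 9.27 on the chow arrays. Its 10 genes, none at the floor, summed to 3269 to 4696 on the high-fat diet and 1425 to 7790 on chow. Hspa12b split the chow mice in the same way: it read 7.47, 7.07, 6.90, 7.17 and 7.05 on the high-fat diet, against 6.35, 5.92, 8.97, 8.65 and 8.81 on chow. For Hspa12b, chow 1 and 2 lay below all HFD arrays and chow 3 to 5 above them. These pairings were chosen after the values were seen, and the part of those cells was not tested.

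**Figure D4:**
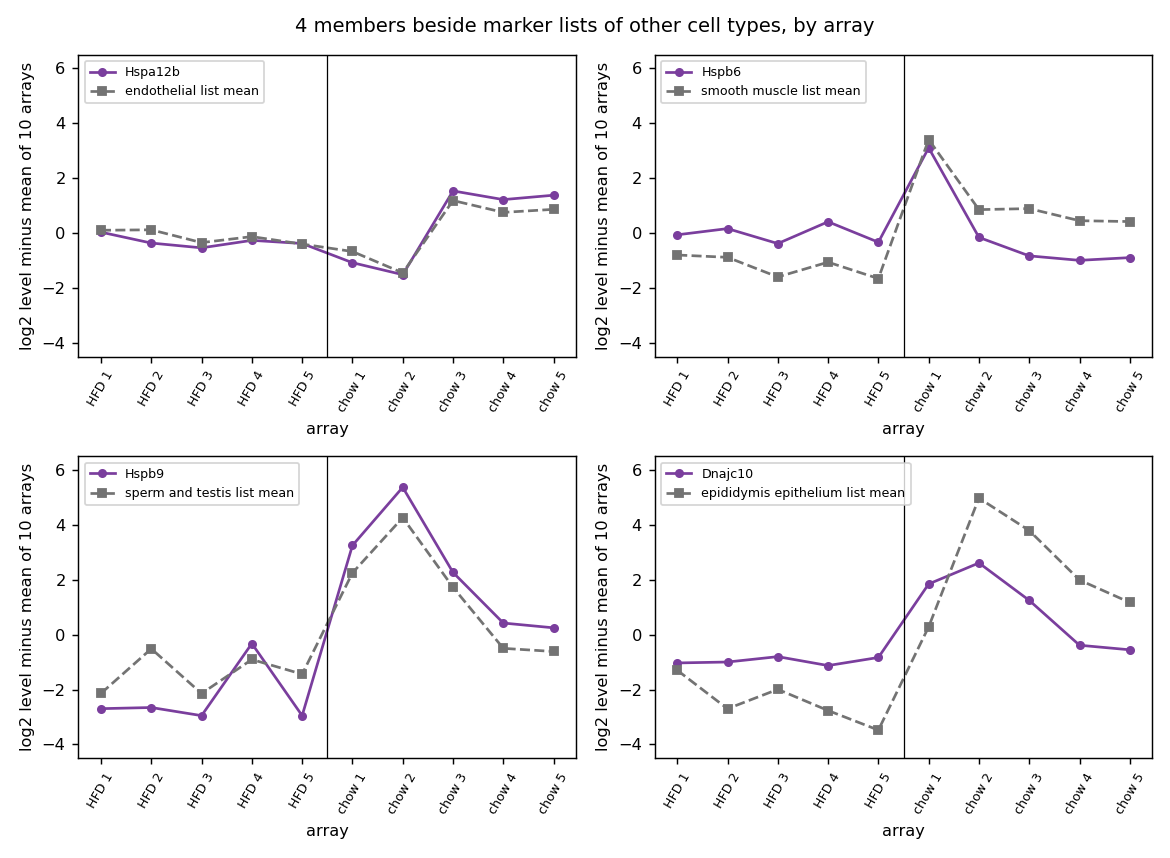
Log2 level minus its mean over the 10 arrays for 4 members (circles) and the mean of a marker list (squares): Hspa12b with endothelial, Hspb6 with smooth muscle, Hspb9 with sperm and testis and Dnajc10 with epididymis epithelium genes, HFD arrays to the left of chow arrays. Hspb6 and the smooth muscle list both peak on chow 1, Hspb9, Dnajc10 and their lists peak on chow 2, and Hspa12b and the endothelial list are lowest on chow 2 and highest on chow 3.

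DnaJ class A proteins are the J-proteins closest to bacterial DnaJ, and all 4 had negative differences with these settings. Dnaja4 read 6.64, 6.58, 5.93, 6.14 and 5.59 on the high-fat diet, against 6.64, 9.39, 7.44, 8.71 and 7.60 on chow. HFD 1 and chow 1 nearly touched, while the other chow arrays were well above. The difference was -1.78 (SE 0.46, adjusted p = 0.0163). Dnaja2, a cytosolic partner of Hspa8, read 10.67, 10.56, 10.76, 10.63 and 10.75 on the high-fat diet, against 11.39, 11.06, 11.12, 10.95 and 11.11 on chow. The groups were apart, and the difference was -0.45 (SE 0.10, adjusted p = 0.00805), but it was 0.06 when arrays were centred on their medians, and of its other probe sets 1 passed at -1.07 (adjusted p = 0.0393), while -0.01 and 0.06 did not. Dnaja1, its inducible relative, read 10.60, 10.25, 10.26, 10.55 and 10.52 on the high-fat diet, against 10.94, 11.12, 10.96, 10.55 and 10.61 on chow. These groups met at 10.55 to 10.60, and the difference of -0.40 lay just outside the threshold (adjusted p = 0.05), while its other probe sets gave -0.80 and -0.74, both past it. Without chow 4 or without chow 5 it passed (adjusted p = 0.0293 and 0.0356). Dnaja3, the mitochondrial J-protein, differed by -0.28 (adjusted p = 0.0716, but 0.0421 without HFD 4) with no overlap.

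In DnaJ class B, 3 genes rose and Dnajb2 fell. Dnajb2, which holds ubiquitin-binding motifs and is best known from neurons, read 7.90, 7.77, 7.35, 7.90 and 7.34 on the high-fat diet, against 8.91, 8.28, 8.72, 8.84 and 8.64 on chow. Each chow mouse was above each HFD mouse, and the difference was -1.03 (SE 0.17, adjusted p = 0.00123). Dnajb14, a J-protein of the endoplasmic reticulum membrane that faces the cytosol, read 8.15, 7.97, 8.13, 7.99 and 8.13 on the high-fat diet, against 7.05, 7.29, 6.97, 7.36 and 7.35 on chow. The groups were well apart, with a difference of 0.87 (SE 0.12, adjusted p = 0.000379) and 0.82 at its other probe set. Its close relative Dnajb12 differed by 0.37 (adjusted p = 0.295). Dnajb13, a radial spoke protein of sperm tails and cilia, ran over 6.58 to 7.52 on the high-fat diet and 4.05 to 6.01 on chow, a difference of 2.04 (SE 0.35, adjusted p = 0.0019).

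Dnajb4 and Dnajb1 are the stress-inducible class B genes. Dnajb4 read 9.33, 9.36, 9.32, 9.21 and 9.45 on the high-fat diet, against 8.74, 8.39, 8.79, 8.86 and 9.05 on chow, with no overlap. It rose by 0.57 (SE 0.12, adjusted p = 0.00654), and another probe set gave 0.66, but a dim one gave -1.38 (adjusted p = 0.00179), and the mean of all its probe sets gave -0.05. Dnajb1, the main inducible J-protein of Hspa1a and Hspa8, read 8.54, 8.34, 8.44, 8.55 and 8.56 on the high-fat diet, against 8.95, 9.51, 9.15, 8.70 and 8.56 on chow. The groups met at chow 5, and the difference of -0.49 did not pass (adjusted p = 0.0536), though it did without chow 4 or without chow 5 (adjusted p = 0.0431 and 0.02). Over the 12 members on the stress-inducible list, 2 rose (Hsph1 and Dnajb4), 2 fell (Hspa1a and Hspa1b) and 8 did not pass. That is 33.3% called, beside 25.9% of all genes (12.9% higher and 13.1% lower). The median difference was 0.08, beside -0.04 over all genes. With Cryab, which is on the stress-inducible list but not a member, 3 of 13 genes rose and 2 fell (38.5% called), with a median difference of 0.12. Dnajb6, a suppressor of polyglutamine aggregates, differed by -0.27 (adjusted p = 0.0676, but 0.0307 without chow 2 and 0.0498 without chow 5) and Dnajb5 by -0.45 (adjusted p = 0.121). The testis genes Dnajb3, Dnajb7 and Dnajb8 differed by -1.64, -1.24 and -0.54, and none passed.

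DnaJ class C groups proteins that share only the J domain, and 8 of 26 passed (30.8%, beside 25.9% of all genes). Dnajc7, a bridge between Hsp70 and Hsp90, read 9.10, 8.92, 9.03, 8.96 and 9.12 on the high-fat diet, against 9.73, 9.71, 10.08, 10.20 and 10.24 on chow. The HFD mice were tightly grouped below all chow mice, and the difference was -0.97 (SE 0.13, adjusted p = 0.000338). Dnajc10 (ERdj5), a disulfide reductase of the endoplasmic reticulum, read 8.53, 8.56, 8.76, 8.43 and 8.73 on the high-fat diet, against 11.40, 12.17, 10.81, 9.17 and 9.01 on chow. It was lower on every HFD array, by 1.91 on average (difference -1.91, SE 0.54, adjusted p = 0.0239), but chow 1 to 3 were far above chow 4 and 5. The epididymis list means were 3.92 to 6.10 on the HFD arrays, against 7.68, 12.37, 11.19, 9.39 and 8.57 on the chow arrays. Chow 2 was highest for the list as for Dnajc10. Chow 1 differed: it was the lowest chow array for the list, while only chow 2 exceeded it for Dnajc10. The part of those cells was not tested. With the mean of epididymis and testis genes as a covariate Dnajc10 was at 0.49 (SE 0.69, adjusted p = 0.712). That mean did not overlap between the groups, so its part and that of the diet cannot be told apart. Dnajc21, whose yeast counterpart acts in ribosome assembly, read 7.56, 7.49, 7.41, 7.37 and 7.37 on the high-fat diet, against 8.52, 8.01, 7.91, 7.99 and 7.94 on chow, with no overlap and a difference of -0.63 (SE 0.13, adjusted p = 0.00564). That call was lost with the values as deposited (-0.40), after median centring (-0.26) and with the mean of its probe sets (-0.20). Dnajc17 and the mitochondrial Dnajc30 fell by 0.64 and 0.36 on the log2 scale (adjusted p = 0.0479 and 0.024), with overlapping groups, and Dnajc30 was at 0.07 when arrays were centred on their medians. These calls were narrow: Dnajc10 missed the threshold without HFD 1, 2 or 4 or chow 1 or 3 (adjusted p = 0.0506 to 0.0549), Dnajc30 without HFD 1, 3 or 5 or chow 3 (adjusted p = 0.0501 to 0.0658), and Dnajc17 without any single array other than chow 4 or 5 (adjusted p = 0.0632 to 0.113).

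Dnajc24, an enzyme partner in making diphthamide on elongation factor 2, rose most in the class. It read 7.14, 6.97, 6.91, 6.98 and 6.86 on the high-fat diet, against 6.01, 5.55, 5.17, 5.95 and 6.36 on chow, without overlap. The difference was 1.16 (SE 0.21, adjusted p = 0.00266), and its other probe set gave 1.49. Dnajc15, a J-protein of the mitochondrial inner membrane, read 10.71, 10.73, 10.66, 10.69 and 10.64 on the high-fat diet, against 9.87, 9.86, 10.13, 10.44 and 10.31 on chow. The HFD mice spanned a very narrow range above the chow mice, and the difference was 0.56 (SE 0.12, adjusted p = 0.00705). Dnajc13 (RME-8), which acts with Hspa8 at endosomes, read 8.68, 8.80, 8.82, 8.71 and 8.90 on the high-fat diet, against 8.54, 8.68, 8.30, 8.30 and 8.38 on chow. HFD 1 and chow 2 stood almost level, and the difference was 0.34 (SE 0.10, adjusted p = 0.0326). It missed the threshold without any single array other than HFD 1 or chow 1 or 2 (adjusted p = 0.0536 to 0.0844), and the mean of its probe sets gave -0.19. The other 18 class C genes did not pass at their brightest probe sets, with Dnajc22, a dim gene, furthest at -1.14 (adjusted p = 0.319). Dimmer probe sets passed for Dnajc2 (0.97 and 1.05), Dnajc14 (0.56), Dnajc22 (-2.27) and Dnajc1 (-1.27). Their adjusted p over all probe sets ran from 0.00675 to 0.0378. Dnajc12, which helps fold aromatic amino acid hydroxylases, differed by 0.49 (adjusted p = 0.144), and by 0.71 without chow 1, its highest array at 7.90 (adjusted p = 0.00817). Dnajc5, the cysteine string protein of secretory vesicles, differed by -0.23, and the ribosome partner Dnajc2 by 0.15 at its brightest probe set.

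The calls depended on which chow mice were in the fit and on whether markers of other tissue entered it as a covariate. Without chow 1 and 2, 17 members rose on the high-fat diet and 15 fell (49.2%, beside 38.3% of all genes). Of the 21 members called with all arrays, 20 passed there in the same direction and 0 in the opposite one, with Dnajc17 the exception. Members gained included Hspa12b at -1.70 (adjusted p = 1.33e-05), Hspb8 at -1.14 and Hspb6 at 0.88. With the mean of 25 epididymis and testis genes as a covariate, 1 member was higher and 3 lower (6.15%, beside 6.77% of all genes). That mean was 3.74 to 4.59 on the high-fat diet and 6.55 to 10.87 on chow, with no overlap between the groups. This fit therefore cannot tell the part of the covariate from that of the diet. Dnajb2 (-1.33, adjusted p = 0.0358) and Dnajc7 (-1.34, adjusted p = 0.01) passed there as well, and these were the only 2 of the 21 called members to pass in the same direction under all 22 alternatives run. For 10 of the 21, the covariate was the only alternative that lost or reversed the call. These were Hspa1a, Hspa1b, Hspa2, Hsph1, Hspb2, Dnaja4, Dnajb13, Dnajb14, Dnajc15 and Dnajc24.

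**Figure D5:**
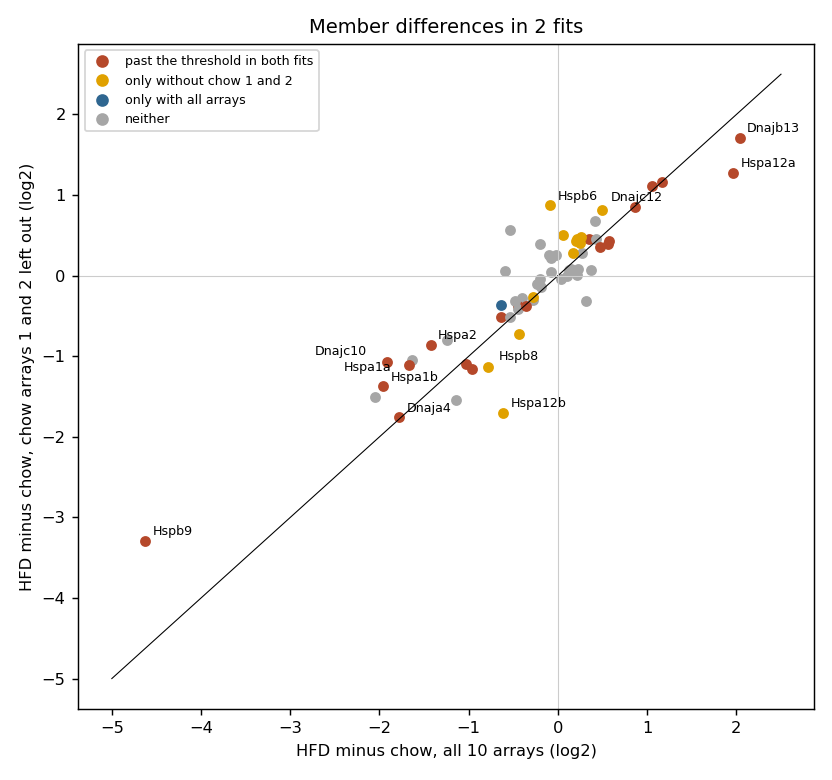
Difference between HFD and chow (log2) for each of the 65 members with all 10 arrays (horizontal) and without chow 1 and 2 (vertical), with the line of equal values. Of the 21 members called with all arrays, 20 lie in the group called in both fits (red) and Dnajc17 is the single blue point; Hspa12b, Hspb8, Hspb6 and Dnajc12 are among those called without chow 1 and 2 (yellow).

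The direction of weak differences also moved with the scale. With the values as deposited 12 members were higher and 8 lower (60% of calls higher), and centring each array on its median gave 22 and 7 (75.9%), beside 42.9% with quantile normalization. All genes moved alike: 49.6% of their calls were higher with quantile normalization, 64.8% as deposited and 75.4% after centring, where the median of all genes was 0.21.

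The genes that work with these chaperones were read from a list of 37 heat shock response and cochaperone genes, of which 32 were measured. In HFD mice 2 rose and 5 fell (21.9% called, beside 25.9% of all genes), with a median difference of -0.13 (-0.04 over all genes). Fkbp5, the Hsp90 immunophilin that glucocorticoids induce, read 8.17, 8.33, 7.83, 8.82 and 8.19 on the high-fat diet, against 10.21, 11.14, 10.09, 10.04 and 10.20 on chow. All HFD mice lay far below all chow mice, and the difference was -2.06 (SE 0.23, adjusted p = 0.000134). Cdc37l1, a relative of the kinase cochaperone Cdc37, read 7.42, 7.04, 7.05, 6.99 and 7.03 on the high-fat diet, against 8.17, 8.60, 8.48, 8.15 and 8.24 on chow, a difference of -1.22 (SE 0.13, adjusted p = 0.000107). Stub1 (CHIP), the ubiquitin ligase bound to Hsp70 and Hsp90, differed by -0.62 and the exchange factor Bag1 by -0.56, and both passed (adjusted p = 0.0195 and 0.00445). Neither passed with the values as deposited or after median centring, where Stub1 was at -0.14 and Bag1 at -0.07. With the covariate of epididymis and testis genes, whose part cannot be told apart from that of the diet, Stub1 was at 0.08. Clpb, a mitochondrial disaggregase, also fell (-0.36, adjusted p = 0.033). Cacybp, which binds a ubiquitin ligase, rose by 0.60, with 9.70 to 9.83 on the high-fat diet and 9.11 to 9.23 on chow (SE 0.08, adjusted p = 0.000325). Grpel1, the exchange factor of mitochondrial Hsp70, rose by 0.39 (adjusted p = 0.00498). Of the 14 genes of the cytosolic chaperonin TRiC and of prefoldin, 0 rose and 1 fell by limma's adjusted p (7.14% called, beside 25.9% of all genes). Pfdn2 differed by -0.56 (adjusted p = 0.0368, but 0.0513 to 0.0916 without HFD 3, 4 or 5 or chow 3 or 4), Cct2 by -0.23 (adjusted p = 0.134), and the median was -0.12. With these settings none of the 14 genes was higher at an unadjusted p under 0.05 either. After median centring 5 were higher and 0 lower by adjusted p, and without chow 1 and 2 the counts were 3 and 3. Pfdn2 was at -0.28 with the values as deposited and -0.15 after centring (adjusted p = 0.409 and 0.561). It also missed the threshold without a trend in the variance prior (adjusted p = 0.0625).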

How the data were processed

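Epididymal fat RNA of 10 mice was hybridised to 10 single-colour Affymetrix arrays after T7 amplification and biotin labelling, per the labels' protocols. The deposited table holds 1 linear intensity per probe set and array for 45101 probe sets; how they were summarised, scaled and scanned is not given in the sources used here. Intensities were raised to a floor at their 5th percentile (0.658), log2 transformed and quantile normalized. Of the probe sets, 34958 had exactly 1 symbol in the platform annotation, 932 had several and 9211 are unnamed here; the 64 control probe sets were left out. Each of 18193 genes was read from its brightest probe set. Other probe sets of a member were tested over all probe sets with 1 symbol.

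Groups were compared with limma 3.58.1 in R 4.3.3 (lmFit, eBayes with a trend, Benjamini-Hochberg adjustment over all genes, threshold 0.05), on all 10 arrays. Single control ratios were compared by an exact 2-sided permutation test over 252 arrangements. The number of arrays limits the precision, and no interval for depth applies. On simulated data with 18193 genes in this design, 55% of 100 changes of 1 log2 unit and 85% of 100 changes of 2 were recovered, with 6 false calls among 146. The simulation drew genes independently, gave both groups the same SD and changed only genes above the median level. In the data the median SD over all genes was 0.271 on the high-fat diet and 0.569 on chow, and 25.9% of genes were called. These rates therefore check the code and do not give the error rates of this comparison.

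Members, gene lists, markers, tests, alternatives and the rule on named genes were set with earlier results of these data known. Full values were given for up to 12 members in each direction that passed the threshold without overlap at a mean above the median gene, for the stress-inducible members, and for up to 4 cochaperone or chaperonin genes in each direction. Pairs of members and marker lists, and the list of members known from testis, were chosen after values were seen. Replicate numbers in the titles did not pair mice. The correlation of same-numbered deviations was -0.02, 0.01, -0.01, -0.01 and 0.01, and no array matched its own number best. Of the cochaperone list, 5 genes were not analysed here. Promoter sequences are from RefSeq (GRCm38.p6). Alternatives are given after the results.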

Additional observations from a re-analysis of the deposited data

Results flagged for a closer look

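Among 146 groups of 5 arrays, 15 held an array far from the other 4, where chance flags about 1 in 20 groups; 7 of these were on chow 2, 3 on chow 1, 3 on HFD 1 and 2 on HFD 4. On chow 2, Hspa13 stood high at 9.88 (others 8.53 to 8.78), Hspa4l at 8.22 (others 6.25 to 6.74), Dnajc5b at 6.02 (others 2.87 to 3.63) and the cochaperone Fkbp5 at 11.14 (others 10.04 to 10.21). On the same array Hspb8 stood low at 7.48 (others 9.46 to 10.04), Dnajc1 at 7.80 (others 8.15 to 8.28) and Dnajc14 at 8.78 (others 9.21 to 9.30). On chow 1, Hspb6 stood high at 11.56 (others 7.46 to 8.30) and Dnajc21 at 8.52 (others 7.91 to 8.01), while Dnajc2 stood low at 7.91 (others 8.22 to 8.33).

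On the high-fat diet, HFD 1 was high for Hspb7 at 8.99 (others 7.61 to 7.94), Hspd1 at 11.23 (others 10.93 to 11.01) and Cdc37l1 at 7.42 (others 6.99 to 7.05). HFD 4 was high for the dim testis genes Hspb9 at 2.02 (others -0.60 to -0.31) and Dnajc5g at 2.81 (others 0.25 to 0.93).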

How the results depend on the processing

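With all settings at their main values, 9 members rose and 12 fell. Leaving out 1 array gave 8 to 11 higher and 9 to 15 lower members, 2 to 4 and 4 to 7 cochaperone genes, 0 to 0 and 0 to 2 chaperonin genes, and 1858 to 2744 and 1791 to 2839 of all genes. Values as deposited gave 6 higher and 2 lower cochaperone genes, 0 lower chaperonin genes and 1491 lower genes overall. Median centring gave 22 higher and 7 lower members, 12 and 2 cochaperone genes, 5 and 0 chaperonin genes, and 4420 and 1440 of all genes. Array weights gave 8 and 8 cochaperone and 2 and 3 chaperonin genes, and no trend gave 0 lower chaperonin genes. Without chow 1 and 2 there were 17 higher members, 7 and 8 cochaperone genes, 3 and 3 chaperonin genes and 3596 lower genes overall. The covariate of epididymis and testis genes gave 1 and 3 members, 1 and 1 cochaperone genes, 0 lower chaperonin genes, and 784 and 447 of all genes. The replicate block gave 8 higher and 10 lower members, so this pairing of numbers that share no mouse moved no member count by over 1.5 times.

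Reversed differences were Dnaja2 at 0.0612 after median centring and 0.0553 without _x_at and _s_at probe sets, Dnajc30 at 0.0682 after centring, Dnajb4 at -0.0534 and Dnajc13 at -0.19 with the mean of all probe sets, and Hspb6 at 0.68 without chow 1 (range over single arrays left out -0.35 to 0.68) and 0.88 without chow 1 and 2. With the covariate, Dnajc10 was at 0.49, Dnajc17 at 0.0391, Dnajc4 at 0.93, Hspa12a at -0.15, Stub1 at 0.0793 and Pfdn2 at 0.22. The cause was not tested. Of the 21 called members, 2 (Dnajb2 and Dnajc7) passed under every alternative run, 10 were lost or reversed only with the covariate, and 9 also under another one. Dim members such as Hspb9 rest on signals near the floor, and their fold changes depend on it.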
